A study of Homo sapiens with 3 samples.

Results

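The genes described here encode 10 antioxidant enzymes, chosen by name: the superoxide dismutases SOD1, SOD2 and SOD3, the enzymes that break down peroxides (CAT, GPX1, GPX4 and PRDX1), and 3 enzymes of the inducible stress response (HMOX1, NQO1 and TXNRD1). They are 10 of the 25002 named genes with a value on the arrays, and 12 probes read them, since GPX1 and PRDX1 have 2 probes each. RNA of the clones U87WT 5 and U87Mut 5 was hybridized together on 2-color Agilent oligonucleotide arrays. Both are stable clones of U-87MG, a human glioblastoma cell line, selected with G418. U87WT 5 carries GFP-IGF1R, a fluorescent fusion of the insulin-like growth factor 1 receptor that is labelled as nuclear, and U87Mut 5 carries GFP-IGF1R1025x-1100x-1120x, with 3 lysines replaced, which is labelled as non-nuclear. Each line is 1 clone, so the receptor and the clone cannot be told apart. There were 3 arrays, 1 for each condition over 24 h: FBS-free medium, IGF1 at 50 nM, and IGF1 with OSI906, which blocks the kinase activity of both IGF1R and the insulin receptor. OSI906 is given as 0.5 μM in the sample name and in the paper, but not in the label of the medium, which names a higher dose. U87WT was in Cy5 and U87Mut in Cy3 on every array, so a dye effect of a probe cannot be told apart from a difference between the clones.

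Superoxide dismutases convert superoxide, which leaks from respiration and is made by oxidases, into hydrogen peroxide. Catalase then splits the peroxide, while glutathione peroxidases and peroxiredoxins reduce it with electrons from glutathione or thioredoxin. The transcription factor NRF2 induces many genes of the glutathione and thioredoxin systems and of heme breakdown, NF-kappaB induces SOD2, and FOXO factors, which are restrained by signalling from IGF1R, are known for inducing SOD2 and CAT.

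The values are ratios of U87WT over U87Mut on the log2 scale after normalization, where 1 is a doubling, and a gene was called on an array above 0.5 or below -0.5, with no test. A gene was also called over the 3 arrays by limma at an adjusted p under 0.05, where the 3 conditions stand in for replicates. SOD1, SOD2, SOD3, CAT and GPX1 were higher in U87WT than in U87Mut on all 3 arrays, by a mean of 1.64-fold to 2.43-fold. NQO1 and TXNRD1 were lower in U87WT on all 3 arrays, and HMOX1 was lower past the limit on 2 of them. GPX4 was higher by 1.27-fold, inside the limit, and the probes of PRDX1 pointed opposite ways. SOD1 and SOD2 were listed by the study from these same arrays, so their direction is no independent evidence.

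**Figure D1:**
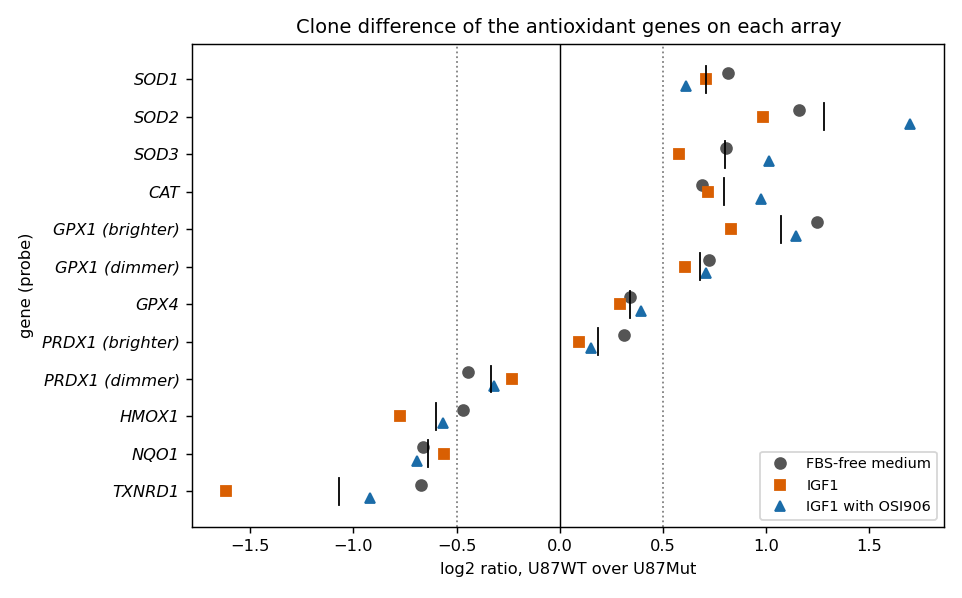
Log2 ratio of U87WT over U87Mut (horizontal axis) for each probe of the 10 genes (vertical axis), with 1 point for each array, a bar at the mean of the 3 arrays, and dotted lines at the limits of 0.5 and -0.5. The points of SOD1, SOD2, SOD3, CAT and both GPX1 probes lie right of 0.5, and those of NQO1 and TXNRD1 lie left of -0.5.

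In FBS-free medium 5 of the 10 genes were higher and 2 were lower, where 6.37% and 6.12% of the 15343 genes well above background everywhere passed the same limits. With IGF1, 5 were higher and 3 lower, against 7.33% and 4.72% of all genes. With IGF1 and OSI906 the counts were again 5 and 3, against 5.74% and 5.66%. On all 3 arrays 5 were higher and 2 lower, against 3.09% and 2.40%. By limma 6 genes were higher in U87WT and 3 lower, and PRDX1 was not called, against 11.0% and 10.7% of the genes and 8.43% of all 58174 probes tested.

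All 3 arrays lay on 1 slide. Each of the 12 probes was marked as well above background for both dyes on each array, 0 spots were saturated, and the number of arrays limits the precision. The IGF1 array held a bright patch, with a local Cy5 background of up to 66985 units against 373 and 45 on the other arrays, and spots marked as not uniform were left out of the background fit. Of the glioma markers, 7 of 10 were well above background, VIM, CD44 and NES among them, while GFAP, S100B and SOX2 were not. Of the leukocyte markers 1 of the 4 with a probe was, PTPRC, and of the epithelial markers 1 of 4, EPCAM. CDKN2A, which is deleted in U-87MG, was also marked as well above background, so this mark alone does not show expression. The ratio of IGF1R itself was 0.07, 0.23 and 0.09 in FBS-free medium, with IGF1 and with OSI906. Both clones carry a receptor transgene, so this does not check the labels.

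SOD2, the manganese enzyme of the mitochondrial matrix, had the highest mean ratio of the 10 genes, although GPX1 was higher in FBS-free medium and TXNRD1 was farther from 0 with IGF1. Its log2 ratio was 1.16 in FBS-free medium, 0.98 with IGF1 and 1.70 with IGF1 and OSI906. U87WT was higher in every condition, by 2.23-fold, 1.98-fold and 3.25-fold. By limma the mean was 1.28 ± 0.14 (SE, n = 3 arrays) with an adjusted p of 0.0140. Of the 15343 genes well above background, 58 had a higher mean ratio than SOD2, or 0.378%. Its normalized log2 brightness in U87WT was 13.67 in FBS-free medium, 12.90 with IGF1 and 14.27 with OSI906, and in U87Mut it was 12.51, 11.92 and 12.57. Both clones were lowest on the IGF1 array, and the lowest level of U87WT was above the highest of U87Mut. The gene lies at chr6:159669069-159762281 (GRCh38.p14), where RefSeq lists 4 starts.

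The bases before the most downstream start of SOD2, of CAT and of TXNRD1 are shown because these genes hold the ends of the pattern: SOD2 and TXNRD1 have the highest and lowest mean ratio, and CAT is the other enzyme usually listed with SOD2 under FOXO factors. Each is the 250 bases before the start in RefSeq on GRCh38.p14, from 5′ to 3′ on the strand of the gene. Capitals mark GC boxes (GGGCGG) for SOD2, CCAAT boxes or their complement ATTGG for CAT, and the core of the antioxidant response element (TGACNNNGC), here read on the opposite strand, for TXNRD1.
SOD2, chr6:159693242-159693491, minus strand: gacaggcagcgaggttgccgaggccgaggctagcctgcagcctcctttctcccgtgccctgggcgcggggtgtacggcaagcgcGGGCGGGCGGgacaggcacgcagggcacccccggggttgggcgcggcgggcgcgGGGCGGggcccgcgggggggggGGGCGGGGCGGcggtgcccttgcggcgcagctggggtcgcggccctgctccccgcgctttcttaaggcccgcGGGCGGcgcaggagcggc
CAT, chr11:34438684-34438933, plus strand: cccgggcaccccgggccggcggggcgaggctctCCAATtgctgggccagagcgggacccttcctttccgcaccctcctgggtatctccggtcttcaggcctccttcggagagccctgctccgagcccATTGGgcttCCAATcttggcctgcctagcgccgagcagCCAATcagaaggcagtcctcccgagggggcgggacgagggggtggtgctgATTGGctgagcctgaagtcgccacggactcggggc
TXNRD1, chr12:104286782-104287031, plus strand: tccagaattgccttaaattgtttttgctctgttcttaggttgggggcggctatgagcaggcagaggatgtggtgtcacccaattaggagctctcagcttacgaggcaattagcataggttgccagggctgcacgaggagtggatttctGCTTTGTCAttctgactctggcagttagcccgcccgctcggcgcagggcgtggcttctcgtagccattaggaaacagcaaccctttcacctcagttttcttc

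The promoter table held 7 of the 10 genes with 13 starts; SOD1, PRDX1 and HMOX1 had no entry. Both strands were searched, and overlapping matches were counted. The motif TGACNNNGC was found before TXNRD1 and no other of the 7 genes, at both of its starts, 99 and 102 bases before them, and in 10.9% of all 35116 promoters. GGGCGG was found in 6 of the 7 genes and in 42.6% of all promoters, and CCAAT in 5 genes and 32% of promoters. The SOD2 window above held 6 GC boxes, and the CAT window held 5 CCAAT boxes. A strict form of the NF-kappaB motif and the FOXO form GTAAACA were found in 0 of the 7 genes, and in 0.527% and 2.98% of all promoters. A match describes letters and not a binding site, and only these windows were searched.

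SOD1, the copper and zinc enzyme of the cytosol, lies at chr21:31659693-31668931. Its log2 ratio was 0.81 in FBS-free medium, 0.71 with IGF1 and 0.61 with OSI906. Its normalized log2 brightness was 15.30, 15.05 and 15.01 in U87WT and 14.48, 14.34 and 14.40 in U87Mut, so the clones did not overlap. Its median brightness before normalization was 47588, 43681 and 35927 units in Cy5 and 23958, 14453 and 17630 units in Cy3. The mean ratio was 0.71 ± 0.05 (SE, n = 3 arrays) by limma, with an adjusted p of 0.00579. The 500 probes nearest to it in brightness had a median ratio of 0.15, 0.06 and 0.10, so probes this bright leaned toward Cy5 as a whole by a smaller amount. The part of that lean in the ratio of SOD1 was not tested. With the scanner's signals the ratio of SOD1 on the OSI906 array was 0.48, inside the limit. With the median in place of loess it was 1.46 on the IGF1 array.

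SOD3, the secreted enzyme of the extracellular space (chr4:24795573-24800842), had log2 ratios of 0.80, 0.58 and 1.01 in FBS-free medium, with IGF1 and with OSI906. Its normalized log2 brightness was 11.14, 10.61 and 11.16 in U87WT and 10.34, 10.03 and 10.15 in U87Mut, again without overlap. The mean was 0.80 ± 0.09 (SE, n = 3 arrays), with an adjusted p of 0.0134 by limma. All 3 dismutases were thus higher in U87WT in each condition. SOD1 was highest in FBS-free medium, and SOD2 and SOD3 were highest with OSI906. With the background fitted on all spots, the bright patch included, the ratio of SOD3 on the IGF1 array was 0.17 and that of SOD1 was 1.14, while SOD2 was at 0.94.

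The genes whose ratios lay nearest to those of SOD1 over the 3 arrays, by Euclidean distance among the 15343 genes, were PCDHB9 at 0.05, C5orf63 at 0.05 and MYLK, a myosin light chain kinase, at 0.06. Nearest to SOD2 were CNTFR-AS1 at 0.16, LUM, an extracellular matrix proteoglycan, at 0.23 and LINC01563 at 0.30. Only 3 values enter each distance.

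CAT encodes catalase, which splits hydrogen peroxide in peroxisomes (chr11:34438934-34472060). Its log2 ratio was 0.69 in FBS-free medium, 0.72 with IGF1 and 0.98 with OSI906. The normalized log2 brightness of U87WT was 11.31, 10.93 and 11.42, above that of U87Mut at 10.62, 10.21 and 10.44. By limma the mean was 0.79 ± 0.07 (SE, n = 3 arrays), and the adjusted p was 0.00809. The probe was printed 10 times on each array, of which 9 spots were kept in FBS-free medium. Single spots ranged from 0.64 to 0.74 in FBS-free medium, from 0.66 to 0.87 with IGF1 and from 0.91 to 1.04 with OSI906. The spots of the OSI906 array did not overlap those of the other arrays, but the spots of 1 array share its RNA and its normalization. Fitted on all spots, the IGF1 ratio of CAT was 0.34, and with the median in place of loess the FBS-free ratio was 0.44.

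HMOX1 encodes heme oxygenase 1, which breaks heme down to biliverdin, iron and carbon monoxide (chr22:35381096-35394207). Its log2 ratio was -0.47 in FBS-free medium, -0.77 with IGF1 and -0.56 with OSI906. The normalized log2 brightness of U87Mut was 12.91, 13.36 and 12.93, above that of U87WT at 12.45, 12.59 and 12.37. The probe was printed 10 times, with an SD over spots of 0.02, 0.03 and 0.03. The spots lay between -0.50 and -0.42, between -0.82 and -0.73, and between -0.64 and -0.52, with no overlap among the 3 arrays. The mean was -0.60 ± 0.07 (SE, n = 3 arrays), or 1.52-fold higher in U87Mut, with an adjusted p of 0.0138 by limma. With the median in place of loess the ratios were -0.64, -0.15 and -0.33, below the limit in FBS-free medium alone.

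**Figure D2:**
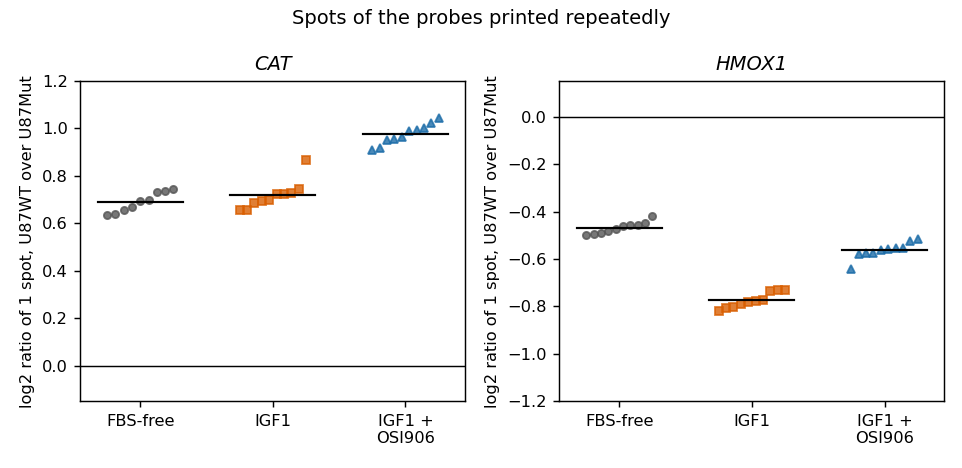
Log2 ratio of each kept spot (points) of the probes for CAT and HMOX1, printed 10 times on each of the 3 arrays, with a bar at the mean of the spots. The ratios of CAT lie above 0 and those of HMOX1 below 0 in each spot, and the spread within an array is small beside the distance from 0.

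GPX1 encodes the abundant glutathione peroxidase of the cytosol and mitochondria (chr3:49357176-49358353). Its brighter probe had log2 ratios of 1.25, 0.83 and 1.14 in FBS-free medium, with IGF1 and with OSI906. The level of that probe was 15.69, 15.17 and 15.56 in U87WT and 14.45, 14.34 and 14.42 in U87Mut, as normalized log2 brightness. Its dimmer probe had 0.72, 0.60 and 0.71 in the same order. Both probes were thus above the limit on each array, and the brighter one was higher by a mean of 0.39. By limma the brighter probe had a mean of 1.07 ± 0.09 (SE, n = 3 arrays) with an adjusted p of 0.00764, and the dimmer one 0.68 ± 0.04 with 0.00446. The 500 probes nearest to the brighter one in brightness had a median of 0.17, 0.08 and 0.15. On the IGF1 array the brighter probe was at 1.28 with the background fitted on all spots and 1.39 in the deposited ratios. There it was at 1.59 with the median in place of loess and 0.71 with the scanner's signals.

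GPX4 reduces lipid peroxides in membranes, and loss of its activity leads to ferroptosis, an iron-dependent death of cells. The gene lies at chr19:1103994-1106779. Its log2 ratio was 0.34, 0.29 and 0.39 in the 3 conditions, inside the limit on each array. With the median in place of loess it was 0.18, 0.89 and 0.65, past the limit on the IGF1 and OSI906 arrays. Its normalized log2 brightness was 13.14, 12.73 and 13.27 in U87WT and 12.80, 12.44 and 12.88 in U87Mut, so the clones overlapped across conditions. The limma mean was 0.34 ± 0.04 (SE, n = 3 arrays) with an adjusted p of 0.0135, and the 3 arrays lay within 0.10 of each other. In order of mean ratio, SOD2, GPX1, SOD3, CAT and SOD1 stood above GPX4, and SOD3 and CAT differed by less than their errors.

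PRDX1, a cytosolic peroxiredoxin that is reduced by thioredoxin (chr1:45511051-45522890), had no settled direction. Its brighter probe gave log2 ratios of 0.31, 0.09 and 0.15, and its dimmer probe gave -0.45, -0.23 and -0.32. The limma means were 0.19 ± 0.05 (SE, n = 3 arrays) with an adjusted p of 0.136, and -0.33 ± 0.05 with 0.0305. With the median in place of loess the brighter probe was at 0.83 with IGF1 and 0.54 with OSI906, past the limit. The probes differed by a mean of 0.52, more than the spread of either over the arrays. With the mean of both probes the value was -0.073, not called (adjusted p = 0.25 by limma).

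NQO1, a quinone reductase and a usual target of NRF2 (chr16:69709401-69726560), had log2 ratios of -0.66, -0.56 and -0.69 in FBS-free medium, with IGF1 and with OSI906. The mean was -0.64 ± 0.04 (SE, n = 3 arrays) with an adjusted p of 0.00492 by limma, or 1.56-fold higher in U87Mut. Its spots were dim, with 198, 211 and 207 units in Cy5 and 353, 237 and 339 units in Cy3 against a median local background of 21 or 22 units. The normalized log2 brightness was 7.79, 7.80 and 7.94 in U87WT and 8.45, 8.36 and 8.63 in U87Mut, without overlap. With the background fitted on all spots the ratio on the IGF1 array was -0.32, with the median in place of loess it was -0.28, and with the scanner's signals -0.82.

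TXNRD1, the cytosolic thioredoxin reductase that keeps thioredoxin reduced (chr12:104215779-104350307), had the lowest ratios. They were -0.67 in FBS-free medium, -1.62 with IGF1 and -0.92 with OSI906. U87Mut was higher by 1.59-fold, 3.06-fold and 1.89-fold. The limma mean was -1.07 ± 0.19 (SE, n = 3 arrays) with an adjusted p of 0.0401, the largest error among the 10 genes. Of the 15343 genes, 81 had a lower mean ratio, or 0.528%. The normalized log2 brightness of U87WT was 9.48, 9.22 and 9.62 in the 3 conditions, and that of U87Mut was 10.15, 10.84 and 10.54. The clones did not overlap, and they moved apart on the IGF1 array.

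The next comparison is the response of each clone, taken as the difference of its normalized log2 brightness between arrays. It has no replicate and no test, and the clones share each array, so a fault of 1 array would move both. The RNA came from whole cultures, in which fewer expressing cells and less RNA per cell cannot be told apart. Over the 15343 genes the SD of the IGF1 response was 0.26 in U87WT and 0.21 in U87Mut.

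With IGF1 against FBS-free medium, 3 of the 10 genes were lower in U87WT beyond 0.5 and 0 were higher, where 2.69% and 2.14% of all genes were. They were SOD2 at -0.77, SOD3 at -0.53 and GPX1, by its brighter probe, at -0.52. That GPX1 probe was inside the limit with the background fitted on all spots (-0.31), with the scanner's signals (-0.36) and with quantile normalization (-0.40). SOD3 was inside it with the scanner's signals (-0.49). The dimmer probe of GPX1 was at -0.51 in U87WT and -0.39 in U87Mut, where the brighter one was at -0.10 in U87Mut. In U87Mut 1 gene was lower, SOD2 at -0.59, and 1 was higher, TXNRD1 at 0.69, against 1.68% and 0.867% of all genes. Without normalization between arrays TXNRD1 in U87Mut was at 0.46, inside the limit. SOD2 was thus lower on the IGF1 array in both clones. CAT was inside the limit at -0.38 in U87WT and -0.41 in U87Mut, but at -0.57 and -0.24 with the background fitted on all spots and at -0.63 and -0.66 without normalization between arrays. GPX4 was at -0.41 and -0.36, and past the limit at -0.65 and -0.60 without normalization between arrays. The response of SOD1 was -0.25 and -0.14, and that of PRDX1, by its brighter probe, was -0.30 and -0.09. By its dimmer probe PRDX1 was at 0.07 and -0.15. HMOX1 was at 0.14 in U87WT and 0.45 in U87Mut, and NQO1 at 0.00 and -0.09. TXNRD1 was the 1 called gene with opposite signs, at -0.26 in U87WT.

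With OSI906 added to IGF1, 3 genes were higher in U87WT than with IGF1 alone and 0 lower, against 3.73% and 3.75% of all genes. They were SOD2 at 1.37, SOD3 at 0.55 and GPX4 at 0.54, the last at 0.50 and just inside the limit with quantile normalization. In U87Mut 1 gene was higher, SOD2 at 0.65, and 0 were lower, against 2.02% and 1.03%. CAT was at 0.49 in U87WT, just inside the limit, and 0.23 in U87Mut. In U87WT it was just past the limit without background correction (0.51) and with offsets of 20 (0.51) and 0 (0.52). It was also past it with the scanner's signals (0.52), with quantile normalization (0.52) and with the background fitted on all spots (0.69). With the background fitted on all spots NQO1 changed sign in U87WT, from 0.14 to -0.16, and SOD3 in U87Mut, from 0.12 to -0.071. GPX1 was at 0.39 in U87WT and 0.08 in U87Mut by its brighter probe, and at 0.48 and 0.38 by its dimmer one. TXNRD1 was at 0.40 in U87WT and -0.30 in U87Mut, and HMOX1 at -0.22 and -0.43. The remaining genes, SOD1, PRDX1 by its brighter probe and NQO1, had values from -0.04 to 0.27 in both clones. The dimmer probe of PRDX1 was at -0.14 in U87WT and -0.05 in U87Mut. These differences use the same IGF1 array as the IGF1 response, so an opposite sign in both is partly built in.

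**Figure D3:**
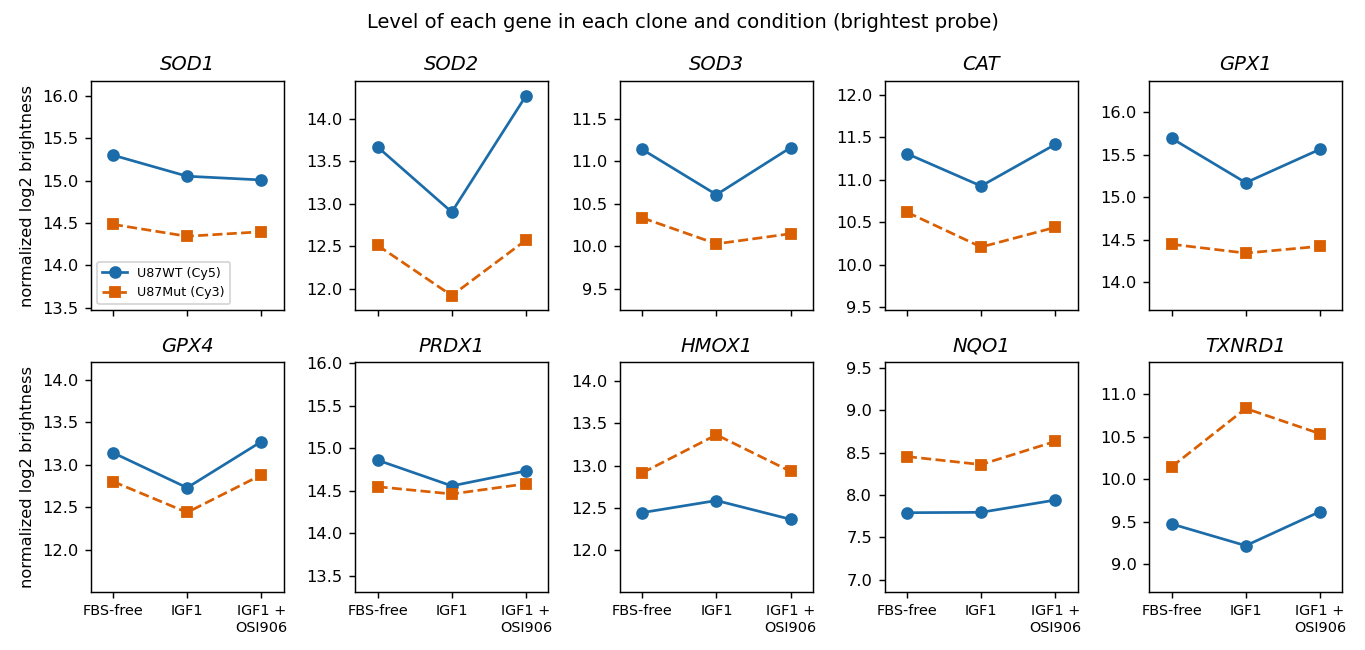
Normalized log2 brightness (vertical axis) of the brightest probe of each gene in U87WT (Cy5) and U87Mut (Cy3) in the 3 conditions, 1 array each; all panels span the same number of log2 units, and levels are not compared between panels. SOD2 is lowest on the IGF1 array in both clones, and TXNRD1 is highest on it in U87Mut and lowest on it in U87WT.

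Around these 10 genes, 9 lists of further redox genes and of genes with shared regulators held 107 genes, of which 106 had a probe and 86 were well above background everywhere. Of the 86, limma called 11 higher and 17 lower in U87WT, with a median ratio of -0.02, against 1692 and 1647 of 15343 genes and a median of 0.00. The other superoxide and peroxide enzymes had 2 of 8 higher and 0 lower, with a median of 0.02. These were CCS, the copper chaperone of SOD1, at a mean of 0.42, and PRDX2, a cytosolic peroxiredoxin, at 0.40. Their difference was thus smaller than that of any of the 3 dismutases.

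The glutathione list had 1 of 16 genes higher and 5 lower, with a median of -0.07. SLC7A11, the transporter that brings in cystine for glutathione, was the lowest of all listed genes. Its log2 ratio was -1.81 in FBS-free medium, -1.69 with IGF1 and -1.45 with OSI906, with a mean of -1.65 ± 0.08 (SE, n = 3 arrays) and an adjusted p of 0.00338 by limma. Its partner chain SLC3A2 had a mean of -1.07, and GCLC, the catalytic subunit of the first enzyme of glutathione synthesis, -0.56. CHAC1, which degrades glutathione, was at -1.68, -1.52 and -0.69 (mean -1.30, adjusted p = 0.0306 by limma).

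The thioredoxin and glutaredoxin list had 0 of 11 higher and 3 lower, with a median of -0.16. SRXN1, a sulfiredoxin that repairs overoxidized peroxiredoxins, was at -1.10 in FBS-free medium, -1.42 with IGF1 and -1.34 with OSI906 (mean -1.29, adjusted p = 0.00407 by limma). Thioredoxin itself, TXN, was at a mean of -0.58 and its reductase is TXNRD1 above. SESN2, a sestrin induced by stress, was at -0.89.

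Of the NRF2 axis and its usual targets, 1 of 16 was higher and 4 lower, with a median of -0.10. The brightest probe of NFE2L2, the gene of NRF2, was not well above background, which alone does not show that its RNA was absent. Among those lower were PGD at -0.52, SQSTM1 at -0.34 and TALDO1 at -0.21, and the higher gene was AKR1B1, an aldo-keto reductase, at 0.64 (adjusted p = 0.0347 by limma). PGD and TALDO1 are enzymes of the pentose phosphate pathway, which supplies NADPH. Among metallothioneins, small proteins that bind zinc and copper, 3 of 6 were lower and 0 higher, with a median of -0.53; these were MT1M at -1.02, MT1X at -0.73 and MT1E at -0.71.

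The heme and iron list had 1 of 7 higher, BLVRA, which reduces the biliverdin made by heme oxygenase, at 0.53, and 1 lower, the ferritin light chain FTL, at -0.39. Of the enzymes that make reactive oxygen species, 3 of 11 were well above background, and MAOA, a monoamine oxidase that releases hydrogen peroxide, was higher at 0.93.

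Of other genes induced by NF-kappaB, 4 of 10 were higher in U87WT and 0 lower, with a median of 0.39. CCL2, a chemokine, was at 1.26 in FBS-free medium, 1.26 with IGF1 and 2.19 with OSI906, and its mean was 1.57 ± 0.21 (SE, n = 3 arrays) with an adjusted p of 0.0195 by limma. NFKBIA, the inhibitor of NF-kappaB, was at 1.09, 1.11 and 1.30 (adjusted p = 0.00338 by limma), and TNFAIP3, a brake on the same pathway, at 1.18, 0.93 and 1.26 (adjusted p = 0.00492 by limma). As with SOD2, the highest ratio of each of these 3 genes was on the OSI906 array. BIRC3 went the other way, at 0.55, 0.44 and 0.33, lowest on the OSI906 array, with a mean of 0.44 that was called. IL6 changed sign, at -0.19, -0.47 and 0.60, highest on the OSI906 array, and its mean of -0.02 was not called.

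Other genes induced by FOXO factors had 1 of 10 higher, BCL6 at 0.78, and 1 lower, GADD45A at -1.02, with a median of -0.02. The median IGF1 response of this list was -0.23 in U87WT and -0.16 in U87Mut, against 0.01 and -0.03 over all genes. TXNIP, which binds thioredoxin and stood in this list and in the thioredoxin list, had log2 ratios of 0.39, -1.43 and 0.19 in FBS-free medium, with IGF1 and with OSI906, so its sign differed between arrays.

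**Figure D4:**
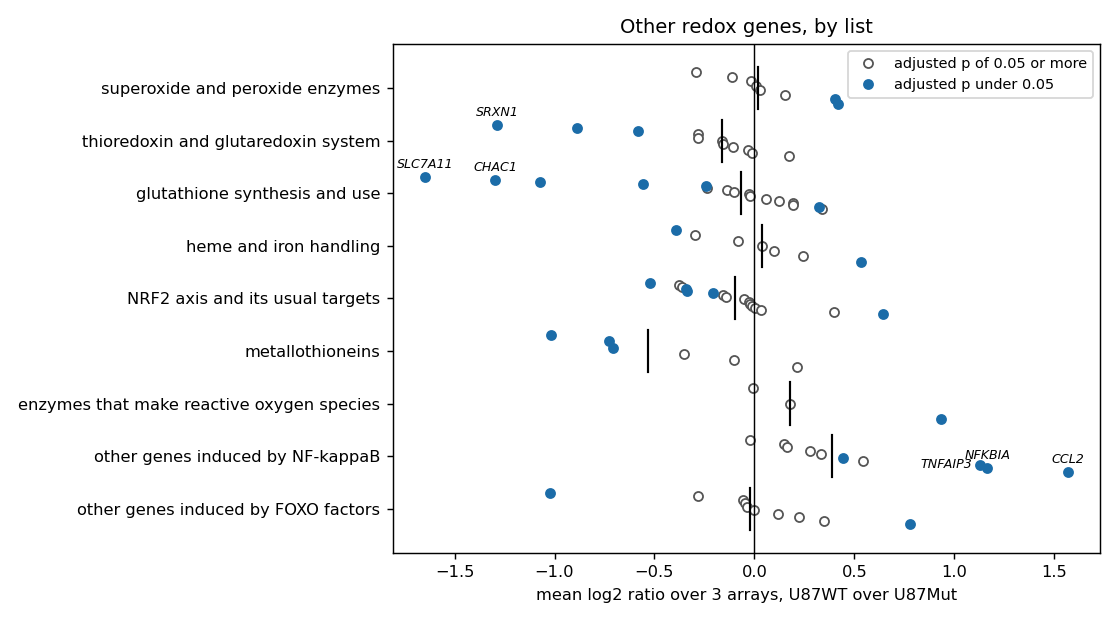
Mean log2 ratio of U87WT over U87Mut over the 3 arrays (horizontal axis) for each further gene well above background, by list (vertical axis); filled points passed the limma test at an adjusted p under 0.05, and bars mark the median of a list. The lowest points are SLC7A11, CHAC1 and SRXN1, and the highest are CCL2, NFKBIA and TNFAIP3.

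The count of calls over the 3 arrays depended on the OSI906 and FBS-free arrays, for the 10 genes and for all probes. Without the OSI906 array limma called 0 of the 10 genes and 232 of all probes. Without the FBS-free array it called 4 genes and 1159 probes. Without the IGF1 array it called 9 genes and 6033 probes, against 9 and 4905 with all 3. In each case 9 or 10 genes had an unadjusted p under 0.05 by limma, but the share of all probes at that p was not computed. With the background fitted on all spots it called 3 genes and 669 probes.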

How the data were processed

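The 3 arrays were read as scanned. Per the file headers, the deposited intensity values are the median brightness of each spot and its local background from Agilent Feature Extraction 12.0.3.1, not normalized; the processed intensity and log10 ratios deposited with them were made by that software. The authors also deposited log2 ratios, which their methods and processing notes credit to limma (version not given in the sources used here).

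In R 4.3.3 with limma 3.58.1, background was corrected by normexp (offset 50), fitted without spots marked as not uniform (384, 572 and 5 in FBS-free medium, with IGF1 and with OSI906), followed by loess within and Aquantile between arrays. Control spots (2075) were left out, as were spots marked as population outliers or as not uniform within the spot itself (95, 117 and 95). Spots of a probe were averaged. Genes were named by RefSeq transcript on GRCh38.p14 for 34892 of 36770 probes with one, and the brightest probe stands for a gene. The levels of different probes were not compared. The clone difference over the 3 arrays was tested with lmFit and eBayes (intercept only, Benjamini-Hochberg over 58174 probes). The limma step was run on simulated ratios with equal, independent noise. These held no treatment or dye effect, so they do not check its use on arrays of different conditions. Nothing states that the arrays come from separate cultures, so the p-values measure only the spread between these arrays, the treatments included.

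The 10 genes, the lists and the tests were chosen with earlier results of these data known. The text names all 10 genes, the 3 highest and 3 lowest listed genes by mean ratio that kept 1 sign over the arrays, and the 3 genes nearest to SOD1 and to SOD2; other listed genes were singled out after their values were seen. Alternatives were the spots in the background fit, the background correction, normalization within and between arrays, the deposited ratios, the probes used, the limit of a call and leaving out each array. The authors' supplementary table was not used. The values of 1 listed gene are not reported here.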

Additional observations from a re-analysis of the deposited data

Results flagged for a closer look

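The IGF1 response of TXNRD1 had opposite signs in the clones, and U87WT minus U87Mut was -0.94 on the log2 scale. The effect of OSI906 under IGF1 on TXNRD1 was also opposite, with a difference of 0.70. Each clone has 1 array per condition and both values use the IGF1 array, so neither difference was tested.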

How the results depend on the processing

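No paired analysis was possible because each condition has 1 array and the labels give no replicate numbers by which to block arrays; the clones are already paired within each array, and limma tested these ratios. By limma 9 of the 10 genes and 4905 of all probes were called. It called 3 genes with the background fitted on all spots and 3 with the deposited log2 ratios, with 669 and 785 of all probes. With an offset of 0 it called 0 genes and 452 probes. With the signals processed by the scanner software or with the median in place of loess it called 0 probes of any gene. The 0 in those settings is thus not particular to the 10 genes. At an unadjusted p under 0.05, limma gave 9 or 10 genes in every setting. The share of all probes at that p was not computed, so this count has nothing to be set against. Leaving out 1 array gave 0 to 9 genes, with 0 without the OSI906 array and 4 without the FBS-free array. Over all probes limma called 232 and 1159 in these cases. With all spots in the fit, 5 genes in place of 8 were past the limit with IGF1, and the share of all genes was not computed there.

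With a limit of 1 in place of 0.5, the counts were 2 in place of 7 in FBS-free medium, 1 in place of 8 with IGF1 and 3 in place of 8 with OSI906. At that limit the IGF1 response had 0 genes in U87WT and 0 in U87Mut, and the OSI906 effect 1 in U87WT and 0 in U87Mut. Without normalization between arrays the IGF1 response had 6 genes in U87WT in place of 3 and 4 in U87Mut in place of 2, and with the scanner's signals 1 in U87WT. The share of all genes past the limit was not computed in these settings, so a shift of all genes cannot be told apart from these changes. Of these counts, the limit of 1 changes its own by its construction, and the cause of the other changes was not tested. The remaining 71 counts stayed within 1.5 times. With the mean of its probes PRDX1 changed sign, to -0.073 in place of 0.19 by limma and to -0.067, -0.069 and -0.084 on the FBS-free, IGF1 and OSI906 arrays. Some responses inside the limit also changed sign, those of NQO1, SOD3, PRDX1 and HMOX1, as did the ratio of PRDX1 with IGF1 with the scanner's signals (-0.024); no value past the limit did. The probe of NQO1 was dim, and its ratio with IGF1 ran from -0.82 to -0.28 over the settings. With 1 array per condition and no dye swap, the error of a single ratio is known only from repeated spots and from arrays of other conditions.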
